A study of Mus musculus with 4 samples.

Results

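The genes described here are 9 G protein-coupled receptors that steer lymphocytes into, within and out of tissues: the chemokine receptors *Cxcr3*, *Cxcr4*, *Cxcr6*, *Ccr2*, *Ccr6*, *Ccr7*, *Ccr8* and *Ccr9*, and the sphingosine 1-phosphate receptor *S1pr1*. They were chosen by name, and every value of these genes in a pair of deposited marker tables was read. All 9 were in the table of cell types, which held 1679 genes, and 6 of 9 were in the table of ILC2 subclusters, which held 2629 genes. The tables held 3488 different genes together.

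Group 2 innate lymphoid cells (ILC2s) are tissue lymphocytes without antigen receptors that answer the alarm cytokine IL-33 with type 2 cytokines. The study sorted ILC2-enriched cells from both organs, liver and lung, of male BALB/c mice (wild type) after daily intraperitoneal injection for 5 days, and sequenced them by droplet-based scRNA-seq. The 4 groups were PBS liver, PBS lung, rIL-33 liver and rIL-33 lung, where rIL-33 is recombinant IL-33 at 0.5 µg per injection, and each group was 1 library. By the study's methods the mice were 8 weeks old, and tissue of 2 to 6 mice was pooled per group, so a library holds no value of a single mouse. The gate took CD127+Thy1+ST2+ cells that lacked CD3e, Ly6G, Ly6c, CD11b, CD45R, TER119 and TCRb.

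Chemokine receptors sense gradients of small secreted proteins and pull cells toward their source. Inflammatory receptors such as CXCR3, CCR2 and CCR6 draw cells to inflamed sites, CXCR6 and CCR8 are typical of lymphocytes that stay in tissue, CCR9 serves the gut and thymus, and CCR7 leads cells to lymph nodes. S1PR1 works the other way. Sphingosine 1-phosphate is high in blood and lymph and low in tissue, so a cell with S1PR1 on its surface is drawn out of the tissue. CD69, an early activation protein, binds S1PR1 and takes it off the surface, and the transcription factor KLF2 drives its gene.

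The word listing stands here for the entry of a gene under a cluster where its mean passed the authors' filter as higher than in the remaining cells. An entry gives the percentage of cells above 0 for the gene, first within the cluster and then outside it, and these shares are the values below. The absence of an entry can mean that a gene was lower in a cluster, did not differ, was rare or was left untested. In the cell type table adjusted and raw p-values differ by a factor of 2000 throughout, the number of genes tested, so many genes could not be listed at all. No value was split by library, so neither rIL-33 against PBS nor liver against lung was compared, no value has a replicate, no test was possible and the depth is unknown. The tables come from different scales. *Cd3e*, a T cell gene whose protein the gate excluded, was above 0 in 81.6% of cells outside the type labelled gdT_TypeI, and *Cxcr3* was above 0 in 66.0% of all sorted cells but in 3.59% of the ILC2s of the other table. A share in the cell type table is therefore given as a share of values above 0, not as a share of cells that express a gene, and its values may be batch-integrated. The assay behind it was not given in the sources used here.

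The promoters of 7 of the 9 genes were in the sequence table, which is RefSeq on GRCm38.p6; *Ccr7* and *S1pr1* were the others. Sequences are shown for the members that the results below turn on, *Cxcr6* and *Ccr8* of the ILC2 type and *Cxcr4*, which shared ILC2 subclusters 3 and 5 with *Ccr8*. Each run is the part of the 250 bases before the RefSeq start that lies outside annotated exons, 5′ to 3′ on the gene's strand. Capitals mark a match on either strand to the core that GATA factors bind, which was searched as the letters GATA with an A or T just before them and an A or G just after. GATA3 is the factor that defines ILC2s and was followed by the study.
Cxcr6, chr9:123806227-123806474, plus strand: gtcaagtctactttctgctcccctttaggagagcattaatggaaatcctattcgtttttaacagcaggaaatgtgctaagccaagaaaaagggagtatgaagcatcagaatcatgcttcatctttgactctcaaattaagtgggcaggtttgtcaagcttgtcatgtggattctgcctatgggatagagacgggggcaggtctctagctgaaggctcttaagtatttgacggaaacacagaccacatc
Ccr8, chr9:120091883-120092113, plus strand: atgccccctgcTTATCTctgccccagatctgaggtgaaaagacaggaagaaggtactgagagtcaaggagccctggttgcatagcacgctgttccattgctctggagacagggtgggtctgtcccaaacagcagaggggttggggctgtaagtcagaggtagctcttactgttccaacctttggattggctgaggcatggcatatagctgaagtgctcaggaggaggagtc
Cxcr4, chr1:128592300-128592549, minus strand: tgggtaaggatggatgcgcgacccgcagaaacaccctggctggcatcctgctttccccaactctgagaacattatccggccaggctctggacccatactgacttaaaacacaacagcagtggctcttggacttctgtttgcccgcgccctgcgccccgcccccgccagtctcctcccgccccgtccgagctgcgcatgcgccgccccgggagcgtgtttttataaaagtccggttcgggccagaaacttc
The run of *Ccr8* holds 1 match and those of *Cxcr6* and *Cxcr4* hold 0. Over the full 250 bases, 4 of 7 members held a match in at least 1 window (*Ccr2*, *Ccr6*, *Ccr8* and *Ccr9*), and 26.5% of all 32851 promoter windows did. Members are counted here as genes, *Ccr6* with more than 1 window, and the background as windows, so the shares are not alike. Outside annotated exons *Ccr2* had only 17 bases and 0 matches. The letters TGANTCA of AP-1, the Jun and Fos family that the study also followed, were in the windows of 0 of 7 members and in 6.75% of all windows. These matches describe letters only.

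On GRCm38 and the GENCODE annotation, 4 of the 9 genes lie on chromosome 9. *Cxcr6* spans chr9:123806475-123811760 on the plus strand and sits inside *Fyco1*, which runs on the other strand. *Ccr9* (chr9:123678439-123784330) ends 22.1 kb before *Cxcr6*, and *Ccr2* (chr9:124101950-124113557) starts 290 kb after it. *Ccr8* lies apart at chr9:120092114-120094906. The remaining genes are *Cxcr3* at chrX:101731535-101734269, *Cxcr4* at chr1:128588199-128592293, *Ccr6* at chr17:8236043-8257141, *Ccr7* at chr11:99144196-99155077 and *S1pr1* at chr3:115710433-115715072. The neighbours *Cxcr6* and *Ccr9* shared 0 cell types, while *Cxcr6* and *Ccr2* shared 4. No background over all gene pairs was taken for such overlaps, here or below.

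Across the 21 cell types the 9 genes had 50 listings, and each was listed for at least 2 types, as were 62.2% of all genes in that table. The share inside the type was above the share outside in 40 listings and below it in 10 of 50, against 16.3% below over all listings. In those 10 the authors' mean was higher while fewer cells had a value above 0. The median difference in shares was 12.1 percentage points over the members' listings and 18.4 over all listings. In the ILC2 table the 6 members had 9 listings, 4 of them with the lower share inside (44.4%, against 29.4% over all listings), and 2 of the 6 were listed for at least 2 subclusters, against 29.2% of all genes. The median difference was 2.4 points there and 13.3 over all listings.

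**Figure D1:**
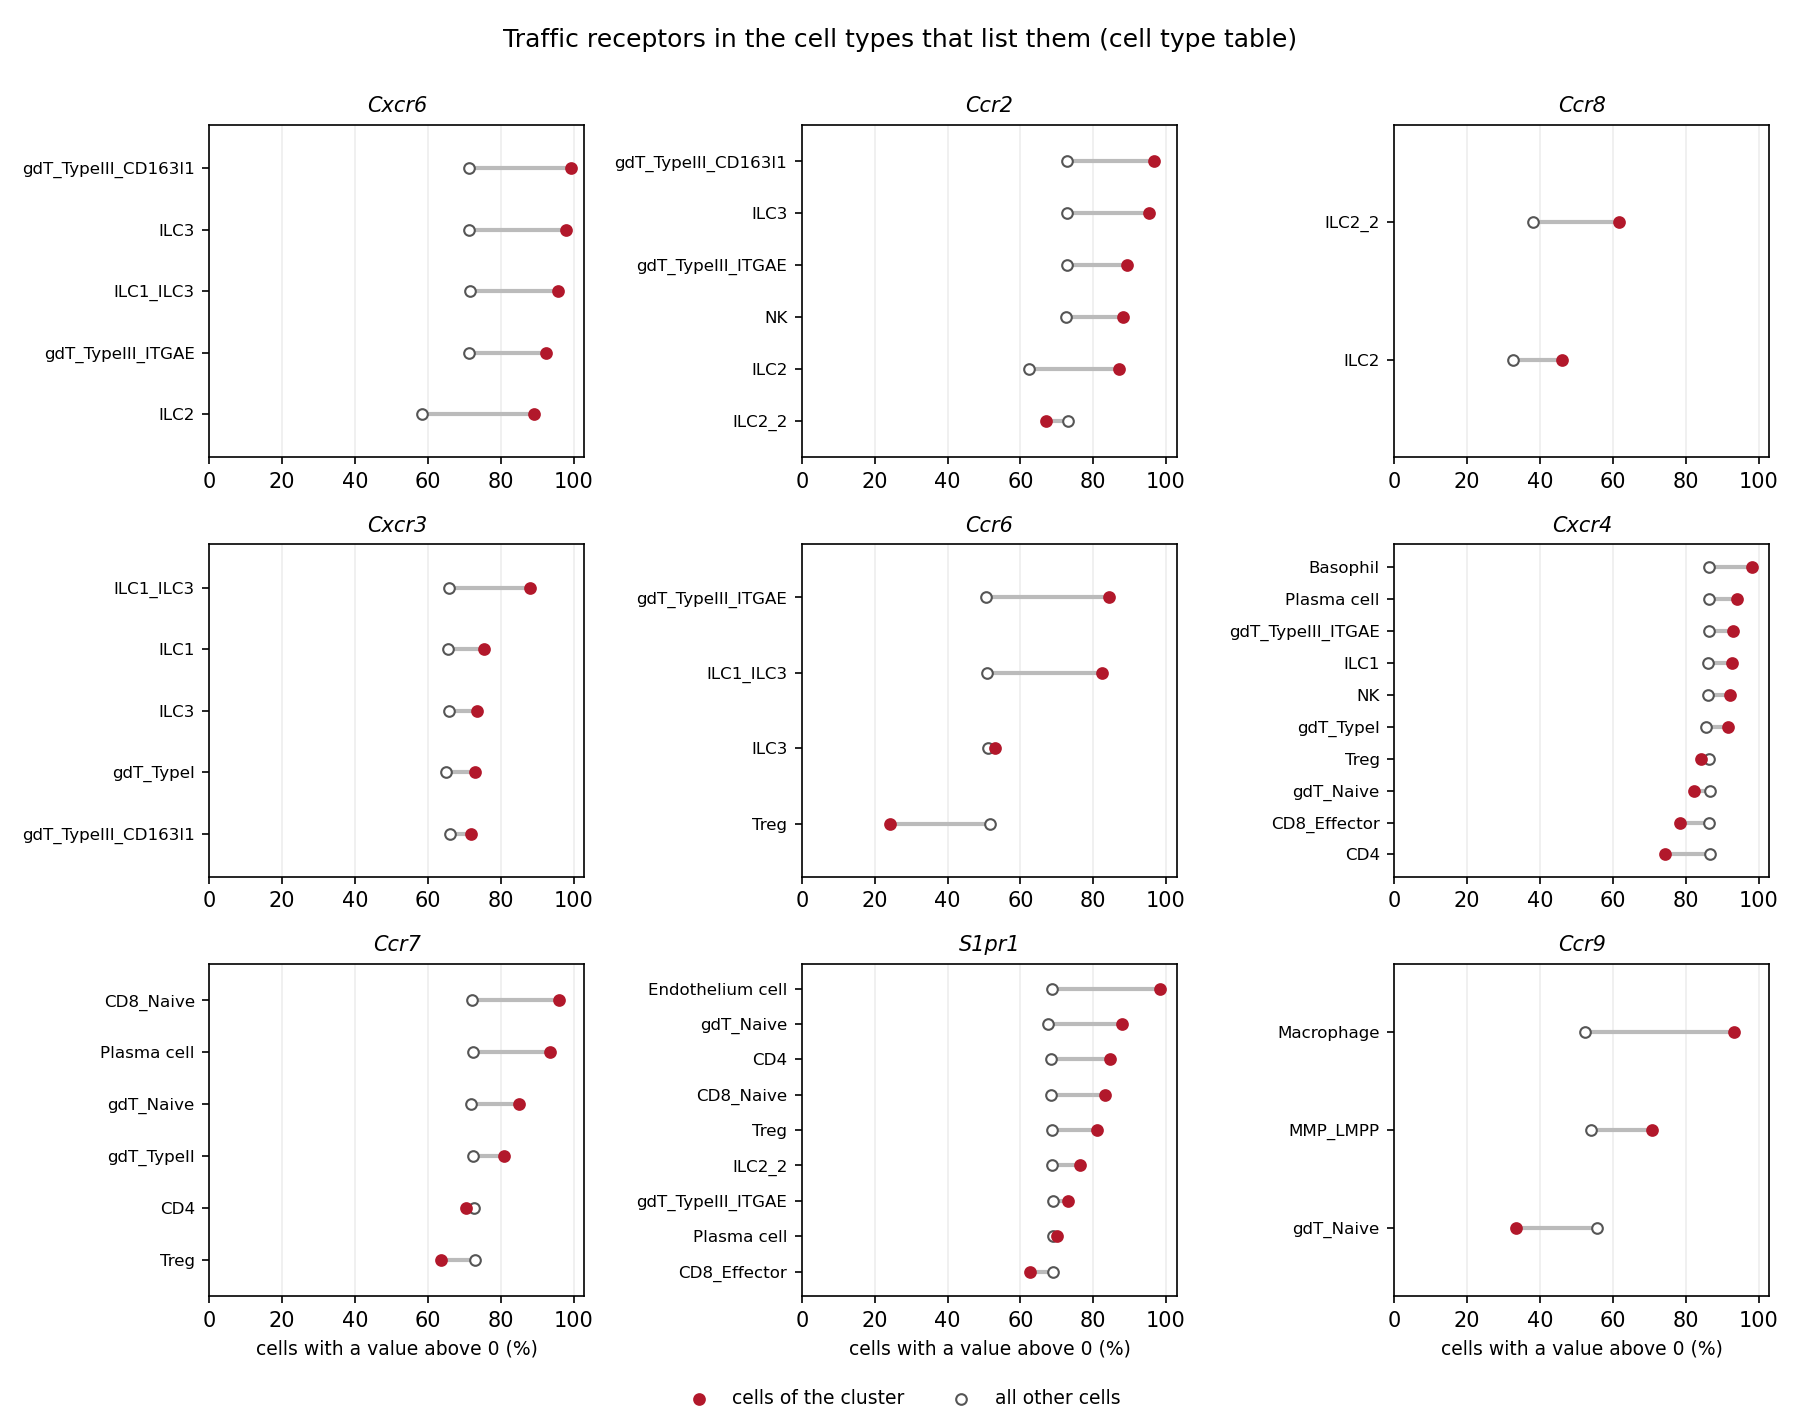
Share of cells with a value above 0 (%, horizontal axis) for each of the 9 genes in every cell type that lists it. Red points are cells of the type and open points are all other cells. *Cxcr6* lies above 89% inside all 5 of its types, and *Ccr9* in the type labelled Macrophage has the widest gap, 93.3% against 52.3%.

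*Cxcr6*, *Ccr2* and *Ccr8* were the members listed for the type labelled ILC2, 3 of 9, where 8.1% of all genes were listed. That type was the largest, with a solved size of 43.2% of cells, and 9 of 11 ILC2 markers were listed for it, among them *Il1rl1* (the IL-33 receptor, 90.2% inside and 47.7% outside) and *Gata3* (93.0% and 60.2%). *Thy1*, whose protein the gate selected in every cell, was not listed there, and *Il7r*, likewise selected, was in the table for no type.

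*Cxcr6* encodes the receptor for CXCL16, a ligand on the surface of liver sinusoids and other tissue cells. It was above 0 in 89.1% of cells of the ILC2 type and in 58.4% of all other cells, a difference of 30.7 points. The shares were higher still in the type labelled gdT_TypeIII_CD163l1 (99.3%, against 71.3% outside), in ILC3 (97.9% against 71.2%) and in ILC1_ILC3 (95.6% against 71.5%), and reached 92.3% in gdT_TypeIII_ITGAE, against 71.4% outside. All 5 types had the higher share on the inside. Together they made up 48.2% of cells, and the 16 types that did not list *Cxcr6* had a solved share of 54.7% (SE 0.0378 points, from rounding and the fitted sizes only).

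*Ccr2*, the receptor for monocyte-attracting chemokines such as CCL2, ran beside *Cxcr6*. In the ILC2 type it was above 0 in 87.2% of cells, against 62.3% outside. It reached 96.8% in gdT_TypeIII_CD163l1 and 95.4% in ILC3, both against 72.7% outside. In gdT_TypeIII_ITGAE it was at 89.3%, against 72.8% outside. *Cxcr6* and *Ccr2* therefore shared 4 types, which is 80.0% of the types of *Cxcr6* and 66.7% of those of *Ccr2*. The pair parted elsewhere. NK listed *Ccr2* (88.1% against 72.5%) and not *Cxcr6*, and ILC1_ILC3 listed *Cxcr6* and not *Ccr2*. The smaller type labelled ILC2_2 listed *Ccr2* with a lower share inside (66.9%) than outside (73.2%).

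*Ccr8*, the receptor for CCL1, was the most restricted member, with 2 listings, both in types labelled as ILC2s. It was above 0 in 61.8% of ILC2_2 cells against 38.0% outside, and in 46.1% of ILC2 cells against 32.6% outside. Its share over the 19 other types together was 31.6%. *Ccl1*, the gene of its ligand, was listed for the ILC2 type alone, at 79.9% inside and 43.3% outside, so receptor and ligand were listed for the same type. ILC2_2 held 1.78% of cells. It listed 4 of 11 ILC2 markers, of which *Il1rl1* (85.8% against 65.7%) and *Areg* (62.7% against 43.7%) had the higher share inside, and *Rora* (77.6% against 81.3%) and *Il17rb* (40.5% against 41.2%) the lower. Of all its listings 53.0% had the lower share inside. Of the 10 markers of other cells it listed, 4 had the higher share inside: *Pecam1* (73.8% against 46.7%), *Trdv4* (61.8% against 45.5%), *Igkc* (33.8% against 21.1%) and *Ctla4* (60.4% against 49.4%). The other 6 had the lower (*Cd4*, *Cd40lg*, *Ikzf2*, *Tbx21*, *Trbc1* and *Trgv2*), from *Cd4* at 47.8% against 54.6% to *Cd40lg* at 22.7% against 55.1%. It also listed *S1pr1* (76.4% against 68.8%), which the large ILC2 type did not, and with *Ccr2* that made 3 of 9 members, where 11.9% of all genes were listed. *Cd69* was listed for 3 of the 9 types that listed *S1pr1*. It had the lower share inside in ILC2_2 (65.5% against 86.6%) and the higher one in gdT_TypeIII_ITGAE (94.9% against 86.1%) and Plasma cell (92.9% against 86.2%). These values were picked after they were seen.

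**Figure D2:**
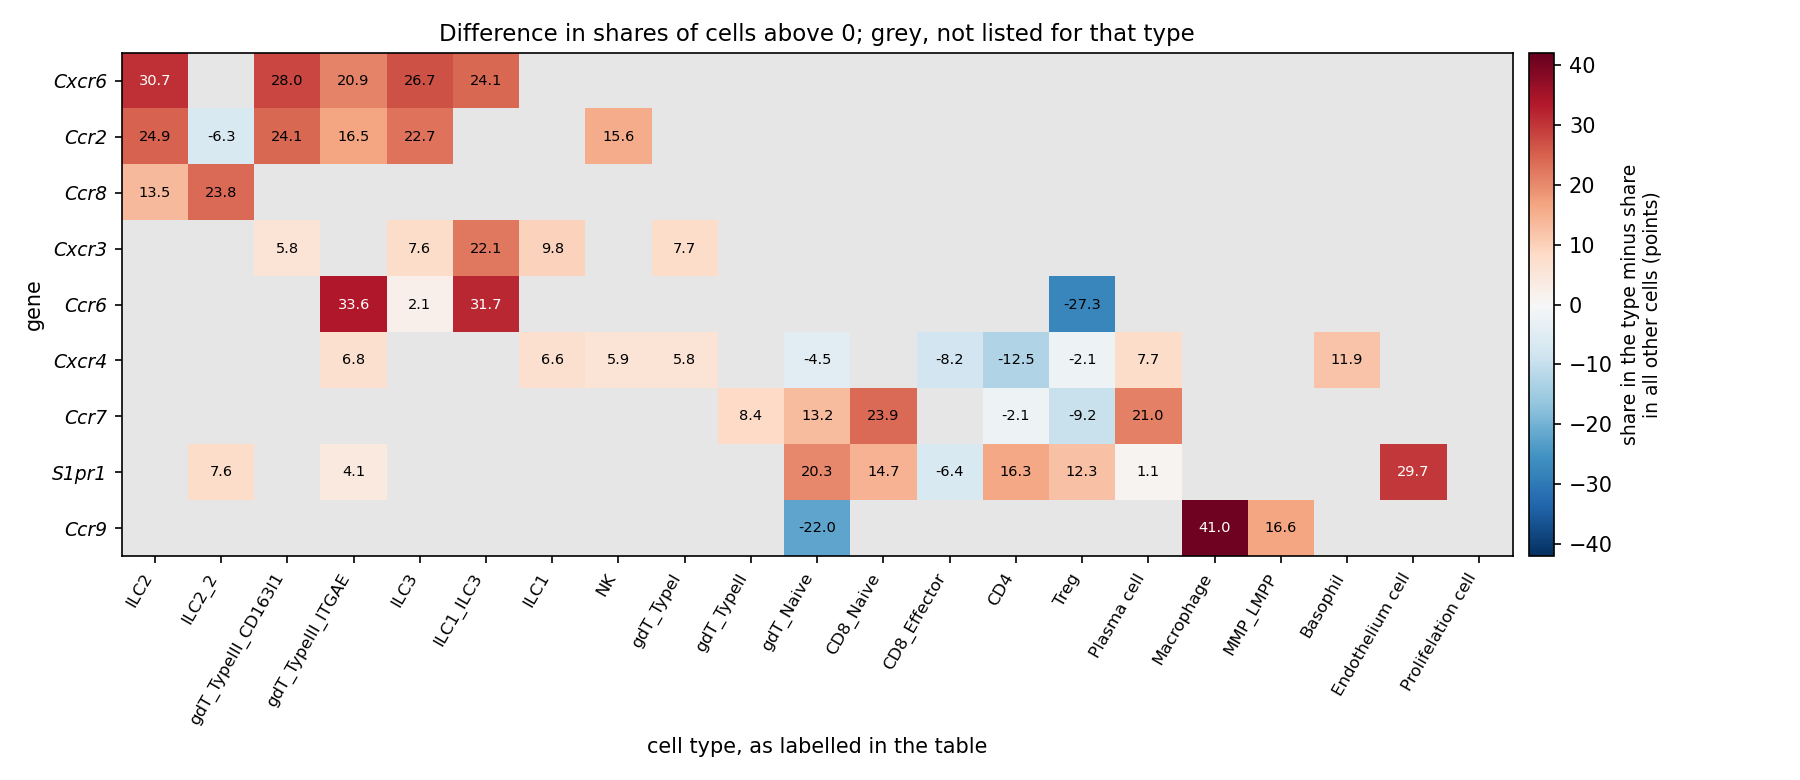
Share inside the type minus share in all other cells, in percentage points, for 9 genes (rows) and 21 cell types as labelled (columns); red is higher inside, blue lower, and grey marks a gene not listed for that type. *Cxcr6* and *Ccr2* are both higher inside ILC2 (30.7 and 24.9 points), ILC3 (26.7 and 22.7), gdT_TypeIII_CD163l1 and gdT_TypeIII_ITGAE. In ILC2_2 *Ccr2* is lower inside (-6.3 points) and *Cxcr6* is not listed. *Ccr7* and *S1pr1* are listed together for CD4, CD8_Naive, Treg, gdT_Naive and Plasma cell.

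By their labels, most types that listed *Cxcr3* or *Ccr6* were innate or gamma delta types, among them ILC3, whose label is doubted below. *Cxcr3*, the receptor for interferon-induced chemokines and a usual companion of type 1 lymphocytes, had its largest difference in ILC1_ILC3, 88.0% against 65.9% outside. Its other 4 types lay close together on the inside, at 75.4% in ILC1, 73.5% in ILC3, 72.8% in gdT_TypeI and 71.8% in gdT_TypeIII_CD163l1, against 65.1% to 66.0% outside. Of its 3 ligands 1 was listed. *Cxcl10* was above 0 in 73.2% of ILC1_ILC3 cells, against 51.0% outside, and in 33.0% of gdT_TypeI cells, against 53.6% outside.

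*Ccr6*, the receptor for CCL20 that marks many IL-17-producing lymphocytes, had listings far apart in both directions. It was above 0 in 84.2% of gdT_TypeIII_ITGAE cells and 82.5% of ILC1_ILC3 cells, against 50.6% and 50.8% outside. In ILC3 the shares were nearly level, at 53.1% and 51.0%. In Treg the share was 24.3%, the lowest of all 50 listings, against 51.6% outside.

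The type labelled gdT_TypeIII_ITGAE had the most members, 5 of 9 (*Cxcr4*, *Cxcr6*, *Ccr2*, *Ccr6* and *S1pr1*), where 11.7% of all genes were listed. The type gdT_TypeIII_CD163l1 had 3 of 9 (*Cxcr3*, *Cxcr6* and *Ccr2*; background 11.4%), and ILC1_ILC3 had 3 of 9 (*Cxcr3*, *Cxcr6* and *Ccr6*; background 13.4%). ILC3 listed 4 of 9 (*Cxcr3*, *Cxcr6*, *Ccr2* and *Ccr6*), where 9.11% of all genes were listed. The label of that type is not borne out by its markers. It listed 1 of the 3 ILC3 markers in the table and 5 of 6 T cell markers, with *Cd3e* above 0 in 91.4% of its cells against 83.3% outside. The part of T cells in its receptor listings was not tested.

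*Cxcr4*, the receptor for CXCL12 that holds cells in bone marrow and tissue niches, was above 0 in 86.4% of all sorted cells, the highest of the 9 genes. It had 10 listings with small differences. Basophils stood highest at 98.2% against 86.3% outside, and 6 of 6 basophil markers were listed for that type. The shares were 94.1% in Plasma cell, 93.1% in gdT_TypeIII_ITGAE, 92.7% in ILC1, 92.1% in NK and 91.5% in gdT_TypeI, each 5.8 to 7.7 points above the other cells. The other 4 listings had the lower share inside: 84.3% in Treg, 82.2% in gdT_Naive, 78.3% in CD8_Effector and 74.3% in CD4, against 86.4% to 86.8% outside. A lower share inside was common in these 4 types, at 51.3% of all listings of Treg, 74.5% of gdT_Naive, 60.6% of CD8_Effector and 76.3% of CD4.

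*Ccr7* and *S1pr1*, the pair that carries naive lymphocytes between blood and lymph nodes, were listed together for 5 types (CD4, CD8_Naive, Plasma cell, Treg and gdT_Naive). That is 83.3% of the types of *Ccr7* and 55.6% of those of *S1pr1*, with no background over all gene pairs. *Ccr7* was above 0 in 95.9% of CD8_Naive cells against 72.0% outside, and in 93.5% of Plasma cell against 72.5%. It stood at 85.0% in gdT_Naive against 71.8%, and at 80.9% in gdT_TypeII against 72.5%. For gdT_TypeII only 28 genes were listed, 1.67% of the table, so that 0 of 6 T cell markers and 0 of 7 gamma delta T cell markers says little of its label. It listed 3 of 11 ILC2 markers, with *Il1rl1* (95.3% against 65.6%) its leading gene. Fewer cells had *Ccr7* above 0 in CD4 (70.6% against 72.7%) and in Treg (63.6% against 72.8%), although its mean there was listed as higher.

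*S1pr1* was above 0 in 98.4% of cells of the type labelled Endothelium cell, against 68.7% outside. Endothelium is a known site of S1PR1, and the marker *Cdh5* was listed for this type at 93.6% against 15.6%. *Spns2*, the exporter that supplies sphingosine 1-phosphate to lymph, was listed there too, at 85.7% against 20.5%, and in Plasma cell at 61.2% against 20.8%. Among lymphocytes *S1pr1* stood at 88.0% in gdT_Naive, 84.7% in CD4, 83.2% in CD8_Naive and 81.0% in Treg, against 67.7% to 68.7% outside. By difference in shares it was the 3rd of 131 genes listed for CD4 and the 4th of 149 for gdT_Naive. Its other ranks ran from the 15th of 198 for CD8_Naive to the 295th of 397 for Endothelium cell, with the 191st of 204 for Plasma cell. The differences were small in gdT_TypeIII_ITGAE (73.0% against 68.9%) and Plasma cell (70.0% against 68.9%), and CD8_Effector had the lower share inside, 62.6% against 69.0%.

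*Klf2* was listed for 9 types, and 7 of them also listed *S1pr1*: CD4, CD8_Effector, CD8_Naive, Plasma cell, Treg, gdT_Naive and gdT_TypeIII_ITGAE. *S1pr1* itself was listed for 9 of the 21 types, and the overlap expected over all genes was not taken. The shares of *Klf2* in those 7 types ran from 97.4% to 99.5% inside and from 84.6% to 85.4% outside. CD4 listed 3 of 9 members (*Cxcr4*, *Ccr7* and *S1pr1*; background 7.8%), Treg listed 4 (those 3 and *Ccr6*; background 8.93%) and gdT_Naive listed 4 (those 3 and *Ccr9*; background 8.87%). Plasma cell listed the same 3 as CD4, against 12.2% of all genes. It listed 5 of 7 B and plasma cell markers. *Mzb1* (91.8% against 18.8%) and *Igkc* (100% against 20.9%) belong to plasma cells and other B lineage cells, and *Ms4a1*, a gene of B cells that plasma cells switch off, was above 0 in 93.5% of its cells against 13.2% outside. *Sdc1*, a plasma cell gene listed for 3 other types, was not listed there. CD3e and TCRb were excluded by the gate, yet *Cd3e* was listed for all of these types except Plasma cell.

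*Ccr9*, the receptor for CCL25, had 3 listings and the widest difference of any member. It was above 0 in 93.3% of cells of the type labelled Macrophage and in 52.3% of all other cells, a difference of 41.0 points. MMP_LMPP, a label of the table not spelled out in it, had 70.7% against 54.1%, and gdT_Naive had 33.5% against 55.5%. The last was the only member listing of the cell type table not kept at an adjusted p under 0.05. The Macrophage type listed 2 of 5 macrophage markers, *Lyz2* (98.5% against 42.3%) and *Cd68* (94.6% against 43.0%). The other 3 (*C1qa*, *Csf1r* and *Adgre1*) were in the table for no type, so they give no value on the label. By difference in shares its leading genes were *Mrc1* (97.0% against 13.2%), *Clec4a3* (97.3% against 14.6%), *Ifi207*, *Lrp1* (96.7% against 15.0%) and *Hp*, of which *Mrc1* encodes the mannose receptor of macrophages and *Lrp1* a scavenger receptor. It also listed, with smaller differences, *Irf8* (98.0% against 50.9%), *Bst2* (97.9% against 56.7%), *Tcf4* (96.9% against 49.2%) and *Cox6a2* (88.5% against 24.3%), genes of plasmacytoid dendritic cells among others, which were chosen after their values were seen. The type is called by its label here. Of the 21 types only the one labelled Prolifelation cell (so spelled) listed 0 of 9 members, although 30.6% of all genes were listed for it.

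**Figure D3:**
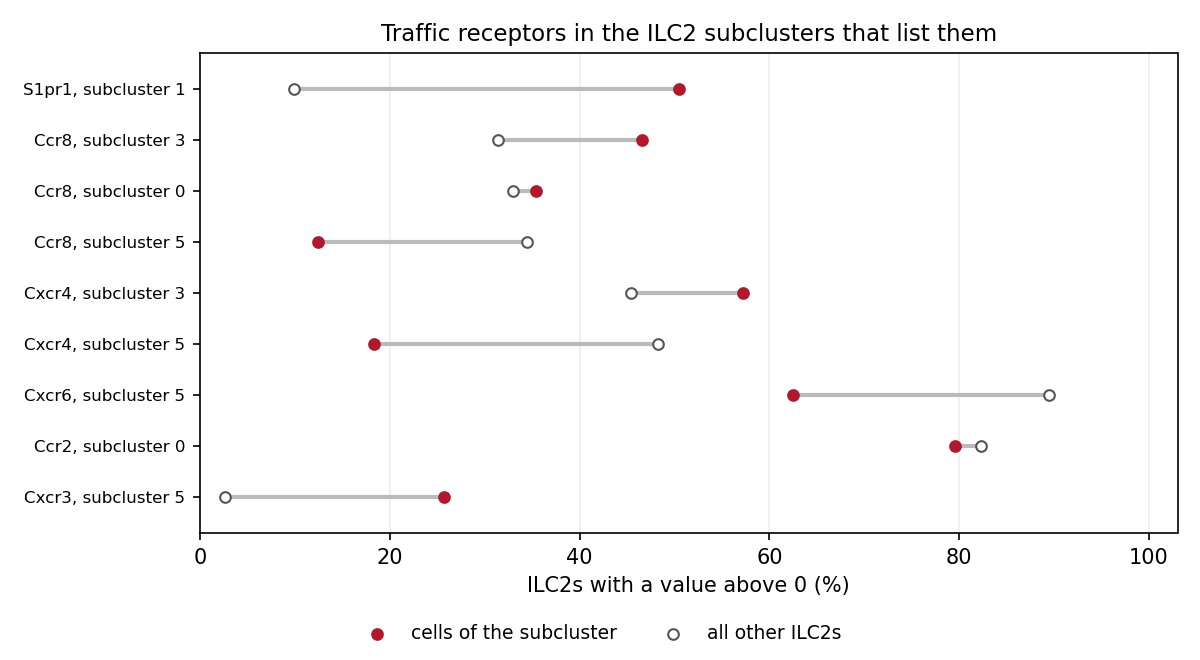
Share of ILC2s with a value above 0 (%, horizontal axis) for the 9 listings of 6 genes in the ILC2 subclusters; red points are cells of the subcluster and open points all other ILC2s. *S1pr1* in subcluster 1 has the widest gap, 50.5% against 9.9%, and 3 of the 4 listings of subcluster 5 lie below the other ILC2s.

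Among the cells kept as ILC2s, the order of the 6 listed members was clear. *Cxcr6* was above 0 in 88.5% of all ILC2s, *Ccr2* in 81.6%, *Cxcr4* in 47.2%, *Ccr8* in 33.7%, *S1pr1* in 18.0% and *Cxcr3* in 3.59%. The errors from rounding and sizes were at most 0.0279 points, so no neighbours overlapped by these errors, which do not cover animals. *Ccr6*, *Ccr7* and *Ccr9* were listed for 0 of 10 subclusters, so no share can be given for them.

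*S1pr1* was listed for 1 subcluster. In subcluster 1, solved at 20.1% of ILC2s, it was above 0 in 50.5% of cells, against 9.9% of all other ILC2s, a ratio of 5.1. By difference in shares it was the 7th of 363 genes listed for that subcluster. It was the 1 of 6 members listed there, where 13.8% of all genes were listed.

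Subcluster 1 also listed other genes of the exit route. *Klf2* was above 0 in 87.4% of its cells against 43.5%, and *S1pr4*, a second receptor for the same lipid, in 79.4% against 44.7%. These were 2 of the 9 exit partners fixed as a list, of which 3 were listed for any subcluster. *Klf2* was also listed for subcluster 7 (74.0% against 52.0%) and, with the lower share inside, for subcluster 5 (48.5% against 52.4%), neither of which listed *S1pr1*. The third partner, *Cd69*, was not listed for subcluster 1. It was listed for subclusters 3 (83.7% against 77.9%) and 9 (92.6% against 78.7%), values that were picked after they were seen.

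Of 18 other traffic receptors, 6 were listed for any subcluster. Subcluster 1 listed 3 of these 6, where 13.8% of all genes were listed. *Ccr3*, the eotaxin receptor, was above 0 in 28.5% of its cells against 8.4%. *Ccr4*, a receptor of type 2 lymphocytes, stood at 31.2% against 19.6%, and was higher in subcluster 4 (46.2% against 19.5%) and subcluster 8 (37.1% against 21.8%). *Ltb4r1*, the leukotriene B4 receptor, was above 0 in 95.5% against 89.2%. Subcluster 4 listed 0 of 6 members although 30.5% of all genes were listed for it.

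Of the 22 genes of the fixed list for the machinery that carries receptor signals, 14 were listed for any subcluster. Subcluster 1 listed 6 of these 14, where 13.8% of all genes were listed. Other subclusters listed them too, with 4 of the 14 in subcluster 2 (4.98% of all genes), 4 in subcluster 9 (7.57%) and 3 each in subclusters 6 (7.23%) and 8 (9.62%). The receptor kinase *Grk2* was at 78.0% against 59.8% and *Grk6* at 47.2% against 31.7%. The G protein subunit *Gnai2* was at 98.8% against 89.5%, and the motility genes *Dock2*, *Rac2* and *Coro1a* at 90.7% against 76.5%, 99.7% against 93.9% and 99.9% against 96.2%. These 6 were named after their values were seen, and all differed by less than 20 points. The signalling genes with at least 20 points were not listed for subcluster 1. They were *Rgs10* in subcluster 2 (76.0% against 51.1%), *Gng2* in subcluster 6 (91.7% against 69.0%) and *Rgs3* in subcluster 7 (33.5% against 12.9%), among other listings of *Rgs10* and *Gng2*. Of the lists' genes for other cells, subcluster 1 listed 2 of 5 naive T cell markers, *Tcf7* (51.8% against 18.9%) and *Lef1* (37.8% against 19.8%), 1 of 6 T cell markers (*Trbc2*), 1 of 4 Treg markers, *Ctla4* (50.9% against 29.5%), 1 of 7 B and plasma cell markers, *Cd79b* (38.7% against 19.9%), and 1 of 5 endothelium markers, *Pecam1* (38.1% against 24.6%). *Cdh5* was not listed for it. It listed the ILC2 markers *Klrg1* (92.1% against 63.1%) and *Il13*. The part of other cell types in the *S1pr1* share was not tested.

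**Figure D4:**
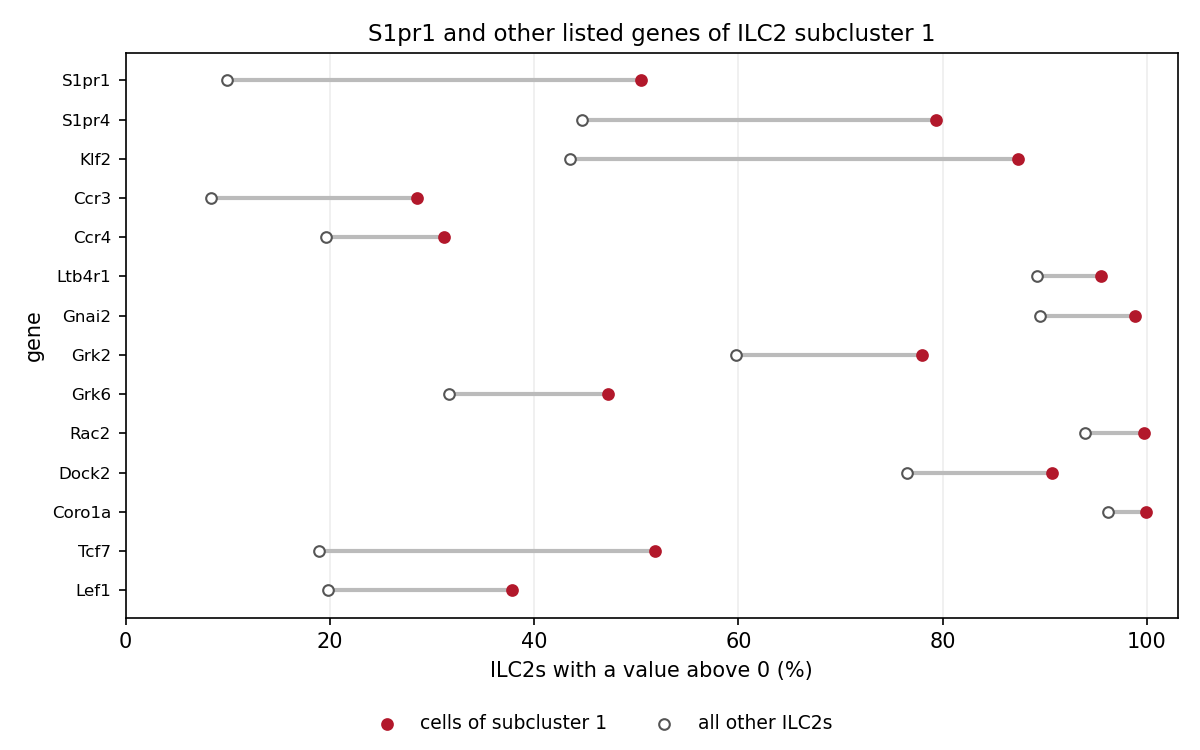
Share of ILC2s with a value above 0 (%, horizontal axis) for *S1pr1* and 13 other genes listed for subcluster 1; red points are cells of the subcluster and open points all other ILC2s. *S1pr1* (50.5% against 9.9%) and *Klf2* (87.4% against 43.5%) have the widest gaps shown.

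*Ccr8* and *Cxcr4*, whose promoters are printed above, were listed for subclusters 3 and 5 both. In subcluster 3, at 14.9% of ILC2s, *Ccr8* was above 0 in 46.6% of cells against 31.4% outside and *Cxcr4* in 57.2% against 45.4%. These were 2 of 6 members, where 9.01% of all genes were listed. Subcluster 3 listed 5 of 11 ILC2 markers and 0 of 6 T cell markers. *Ccr8* was also listed for subcluster 0, the largest at 27.3% of ILC2s, with nearly level shares of 35.4% and 33.0%. There *Ccr2* had the lower share inside, 79.6% against 82.3%, and these 2 of 6 members stood beside 11.4% of all genes.

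Subcluster 5, at 3.87% of ILC2s, listed 4 of 6 members, but 38.0% of all genes were listed for it and 978 of its 1000 listings (97.8%) had the lower share inside. *Cxcr6* was above 0 in 62.5% of its cells against 89.5%, *Cxcr4* in 18.4% against 48.3%, and *Ccr8* in 12.5% against 34.5%. *Cxcr3* went the other way, at 25.7% against 2.7%, a ratio of 9.52, and was the 4th of 1000 genes by difference in shares. The same subcluster listed *Cd3e* (32.0% against 4.7%) and *Trdc* (25.6% against 7.0%), genes of T cells and gamma delta T cells. In all it listed 3 of 6 T cell markers and 2 of 7 gamma delta T cell markers, of which *Trbc1* (45.0% against 81.0%) and *Trdv4* (9.9% against 26.6%) had the lower share inside. By the study's methods, cells with markers of other lineages, *Cd3* among them, had been taken out before this clustering. The part of any that were left in the *Cxcr3* share was not tested. Without subcluster 5, *Cxcr3* has no listing among ILC2s and 5 listings of members are left.

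The other genes of the pathway were read from fixed lists. Over the cell types, 11 of 18 other traffic receptors were listed, 10 of them with a difference of at least 20 points in some type. The share of all genes that reach 20 points was not taken, and the median difference over all listings was 18.4 points. The Basophil type listed 5 of the 11 receptors, where 16.4% of all genes were listed. *Ccr3* (77.9% against 16.0%), *Ccr1* (72.8% against 16.1%), *Cxcr2* (82.4% against 36.5%) and *Ccrl2* (92.5% against 55.5%) had the higher share inside. *Cx3cr1* had the lower (25.7% against 34.6%). *Ltb4r1* was listed for ILC2 (91.1% against 46.3%), ILC3 and gdT_TypeIII_CD163l1, 3 types that also listed *Cxcr6* and *Ccr2*. *Cxcr5*, the receptor that leads to B cell follicles, was listed for Plasma cell (75.9% against 42.8%) and ILC1_ILC3 (77.6% against 42.8%), and for CD8_Naive with the lower share inside (19.2% against 43.7%). Of 14 ligands of the members, 2 were listed for a cell type, *Ccl1* and *Cxcl10*, and 0 for an ILC2 subcluster. Of 9 exit partners 4 were listed for a cell type, and of 22 signalling genes 5 were. Genes tested but never listed are not named, so these counts have no background.

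The genes most like each member were found by the cosine of the difference in shares over the 21 cell types, with 0 where a gene was not listed. *S100a4* was closest to *Cxcr6*, at 0.99 over the same 5 types, followed by *Tmem176b* (0.96) and *Rora* (0.94). *Cxcr6* was in turn closest to *Ccr2* (0.85), before *S100a4* (0.84) and *Ltb4r1* (0.83). For *Ccr8* the nearest were *Epcam* (0.99), *Wee1* (0.99) and *Enah* (0.98), over 2 types.

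For *Ccr7* they were *Smc6* (0.91), *Satb1* (0.71) and *Lef1* (0.63), and for *Cxcr3* they were *Krt83* (0.93), *Clnk* (0.86) and *Cited4* (0.85). *Ccr9* was nearest to *Ctsc* (0.92), *Snx9* (0.89) and *Wdfy4* (0.89). By the nearest gene alone, likeness was weaker for the remaining members. These were *Ccr6* with *Pim2* (0.79) and *Tob2* (0.74), *Cxcr4* with *Malt1* (0.73), *Rasa3* (0.73) and *Ifrd1* (0.72), and *S1pr1* with *Nrp1* (0.73), *Lrrc32* (0.71) and *Dst* (0.68). Over the 10 subclusters the nearest to *Cxcr4* were *Gpr183*, *Nup98* and *Paxbp1*, and to *Ccr8* they were *Sipa1l1*, *Jun* and *Rab27b*, each with a cosine that rounds to 1.0 from only 2 or 3 subclusters. These are descriptions of pattern and carry no test.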

How the data were processed

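Sorted cells of 4 libraries, 1 per group, were profiled with 10x 3′ kits. Per the submitters' processing notes and the study's methods, the authors aligned reads with Cell Ranger to mm10, removed doublets and dead cells by flow cytometry, and used Seurat for clustering. No doublet calling by software was described, and none could be run without cells. The tables give neither depth nor cell numbers, and the cell numbers that the study states were not used here.

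The deposited share columns hold the fraction of cells with a value above 0 within a cluster and outside it, with 3 decimals. The deposited log2 fold changes and p-values are the authors' own comparisons of each cluster with all other cells. They were used only as filters and none is reported. No listing had a log2 fold change under 0.25 or under 25.0% of cells above 0 on both sides. The tables held 0 further columns of values per sample.

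Sizes of clusters were solved by least squares from genes with 2 or more listings, since for each gene the share outside plus the size times the difference in shares equals the share in all cells. Shares over all cells and over unlisted clusters followed. On simulated data with known sizes the largest error of a share was 0.0539 points over 1679 genes for the cell type table and 0.0533 over 2629 genes for the ILC2 subcluster table. Solved sizes summed to 100.1% and 100.2%. Python 3.11.15, pandas 2.3.3, numpy 2.4.6 and matplotlib 3.10.9 were used.

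Named were every member in every cluster that lists it, genes of the other lists with a difference of at least 20 points or that are a ligand, and the 3 genes of highest cosine per member. A few genes that the rule would name are not reported here. Genes named outside the rule are said to be so or are markers used to check a label. The members and lists were chosen with earlier results of these data known. Alternatives were other filters on listings, other fits of the sizes and the Jaccard index for likeness. Leaving out subcluster 5 and leaving out types with uncertain labels were chosen after seeing the data.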

Additional observations from a re-analysis of the deposited data

How the results depend on the processing

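The 50 listings of the members over cell types fell to 26 where a share at least 10 points above the other cells was asked for, and 7 of the 9 genes then had at least 2 types. Of all listings over cell types, 65.5% passed this filter. The members' listings were 40 with any higher share, 39 at a log2 fold change of at least 0.5, 49 at an adjusted p under 0.05, and 42 without the types labelled Plasma cell, ILC3 and Macrophage. Each of these 4 settings left all 9 genes with at least 2 types. Without ILC2_2 and gdT_TypeII as well, 38 listings and 8 such genes remained, and *Ccr8* had 1. In the ILC2 table the 9 listings became 4 at 10 points (0 genes with at least 2 subclusters), 5 with any higher share (1 gene), 5 at the fold change filter (0 genes) and 5 without subcluster 5 (1 gene), and stayed at 9 under the adjusted p. At 10 points 56.3% of all listings there passed. The settings without clusters were chosen after seeing the data. Of the 33 nearest genes, 14 were also among the nearest or tied by the Jaccard index. All 45 alternative values of the shares over all cells and all 45 over unlisted clusters stayed within 0.1 points. No paired analysis was possible because the tables hold no value per library. Depth is unknown, and shares of small clusters rest on few cells.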
